A study of Mus musculus with 6 samples.

Results

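Replication-dependent histone genes were examined in RNA-Seq counts of Tregs from WT mice and from mice that lack Zfp335 in Tregs. A gene was taken when its symbol was H1f, H2ac, H2bc, H3c or H4c followed by a number, or began with the older Hist1h to Hist4h names. This rule found 44 of the 13709 genes of the table. In the reference annotation (RefSeq, GRCm38.p6), 34 of them lay in the Hist1 cluster on chromosome 13 and 8 in the Hist2 cluster on chromosome 3, so 42 were cluster histone genes. The other 2, H1f0 on chromosome 15 and H1f10 on chromosome 6, met the rule by name alone. They are known as linker histones made outside S phase and are given apart. A further 26 reference symbols met the rule but were not analysed here.

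CD4+YFP+CD25+ cells of C57BL/6 mice made up the 6 samples, 3 from Foxp3Cre mice (WT) and 3 from mice that also carried 2 floxed Zfp335 alleles, Foxp3Cre Zfp335fl/fl (KO). The mice were 2 weeks old per the study's methods. Values of single samples are given in the order of replicates 1 to 3. Mice of both genotypes made Cre and YFP from the Foxp3 locus, so that deletion of Zfp335 in KO mice was limited to cells that had made Foxp3, and the same cells were marked for sorting. The labels named the controls as wild-type littermates, and they gave both lymph nodes and spleen as the source. How many mice made up a sample was not stated, so the p-values measure the spread between these samples, which may be technical. In such bulk samples, a change in the number of cells of a kind and a change in RNA per cell cannot be told apart.

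Histones are the proteins around which DNA is wrapped. H2A, H2B, H3 and H4 form the nucleosome core, and H1 binds the linker DNA between nucleosomes. A cell that copies its DNA needs new histones at the same time, and the clustered genes that supply them are switched on in S phase and silenced after it. Their mRNAs are unusual because most end in a short stem-loop in place of a poly(A) tail. The stem-loop is bound by Slbp, which guides 3′ end processing, translation and the rapid decay of the mRNA when replication stops. The same genes can also make polyadenylated RNA, above all in cells that are not dividing. Libraries made from polyadenylated RNA therefore capture little of the main form of these mRNAs. The labels named a TruSeq RNA kit and total RNA as input and did not say whether poly(A) RNA was selected.

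The stem-loop was searched by its known pattern in the annotated transcripts (GENCODE M21, sense strand) to show which of them hold it. Some transcripts without a match are short and stop before the RefSeq end of the gene. Examples are H2bc18 (381 bases), H2ac13 and H2ac15 (393 each) and H3c11 (411). A missing match therefore does not show which end the mRNA has. It was found in 31 of the 42 cluster histone genes (73.8%) and in 56 of 141687 transcripts of other genes (0.0395%). The commonest form was shared by 18 genes of the H1, H2A, H2B and H3 classes, as shown for H1f2 and H2ac19. A second form in 5 genes, as in H3c3, differed in the loop. The H4 genes had forms of their own, shown for H4c9, H4c18 and H4c2. Each line gives 30 bases of the transcript around the stem-loop, which is in capitals. They lie at chr13:23739507-23739536 (+), chr3:96239775-96239804 (-), chr13:23745038-23745067 (-), chr13:22040957-22040986 (-), chr13:21831789-21831818 (-) and chr13:23757361-23757390 (+) of GRCm38, in the order shown.
H1f2: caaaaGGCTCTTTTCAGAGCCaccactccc
H2ac19: aaaaaGGCTCTTTTCAGAGCCacccactga
H3c3: aaaaaGGCTCTTTTAAGAGCCacctaagat
H4c9: ttaaaGGCCCTTTTTAGGGCCaccacaaaa
H4c18: ctaaaGGCCCTTTTCAGGGCCatccaatta
H4c2: caaaaGGTCCTTTTCAGGACCactcactga

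The promoters of the clusters are compact, and those of an H2A and an H2B gene often share the DNA between a head-to-head pair. RefSeq windows from 250 bases before to 50 bases after the start of the gene were held for 37 of the 42 cluster histone genes, as 38 windows. The following 4 known promoter elements were searched by exact match on both strands. CCAAT, the box of many replication-linked promoters, was present in 33 windows (86.8%), against 37.4% of all 32851 windows. TATAAA, the core promoter element, was present in 17 (44.7%, against 13.6%). The octamer ATTTGCAT, known from H2B promoters, was present in 9 (23.7%, against 1.74%), namely those of H2bc3, H2bc6, H2bc8, H2bc12, H2bc14 and H2bc18, and of H2ac4, H2ac6 and H2ac8. AAACACA, known from H1 promoters, was present in 6 (15.8%, against 7.18%), those of H1f2, H1f3, H1f4, H1f5, H2bc14 and H2ac4. Windows of head-to-head pairs overlap, so these counts are not independent. A match is a string of letters and not a measured binding site.

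Promoters are shown for 5 genes that the results below turn on. H1f2 and H4c9 were the most abundant of the genes that rose, H2bc8 had the largest fold change, and H2ac19 and H3c15 each share long stretches with a copy. The windows, on GRCm38.p6, are chr13:23738557-23738856 (+) for H1f2, chr13:22041313-22041612 (-) for H4c9, chr13:23571150-23571449 (+) for H2bc8, chr3:96240325-96240624 (-) for H2ac19 and chr3:96239078-96239377 (-) for H3c15. Capitals mark the 4 elements above in either orientation, with ATTGG as the reverse of CCAAT.
H1f2: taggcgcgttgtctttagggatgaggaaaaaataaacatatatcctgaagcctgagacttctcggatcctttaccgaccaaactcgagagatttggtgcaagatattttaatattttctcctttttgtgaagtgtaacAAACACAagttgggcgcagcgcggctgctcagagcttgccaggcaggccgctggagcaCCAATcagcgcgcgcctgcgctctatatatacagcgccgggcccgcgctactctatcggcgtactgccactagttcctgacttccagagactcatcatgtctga
H4c9: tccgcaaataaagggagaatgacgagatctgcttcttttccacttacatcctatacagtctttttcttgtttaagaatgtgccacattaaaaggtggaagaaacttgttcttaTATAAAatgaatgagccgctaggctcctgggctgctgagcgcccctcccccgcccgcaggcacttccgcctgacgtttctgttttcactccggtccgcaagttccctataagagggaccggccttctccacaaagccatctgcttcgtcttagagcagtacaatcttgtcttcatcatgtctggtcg
H2bc8: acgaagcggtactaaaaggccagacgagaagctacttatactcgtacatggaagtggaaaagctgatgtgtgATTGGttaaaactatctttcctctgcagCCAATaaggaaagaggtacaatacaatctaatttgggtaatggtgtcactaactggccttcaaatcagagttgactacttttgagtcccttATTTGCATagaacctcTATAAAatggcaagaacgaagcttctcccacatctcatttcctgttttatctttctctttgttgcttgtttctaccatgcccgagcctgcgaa
H2ac19: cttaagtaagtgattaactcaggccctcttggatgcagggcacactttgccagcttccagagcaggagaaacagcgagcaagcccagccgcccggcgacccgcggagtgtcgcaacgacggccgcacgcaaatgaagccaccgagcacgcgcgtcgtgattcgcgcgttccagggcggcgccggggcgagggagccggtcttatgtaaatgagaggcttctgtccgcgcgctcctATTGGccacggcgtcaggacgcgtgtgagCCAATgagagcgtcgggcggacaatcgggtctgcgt
H3c15: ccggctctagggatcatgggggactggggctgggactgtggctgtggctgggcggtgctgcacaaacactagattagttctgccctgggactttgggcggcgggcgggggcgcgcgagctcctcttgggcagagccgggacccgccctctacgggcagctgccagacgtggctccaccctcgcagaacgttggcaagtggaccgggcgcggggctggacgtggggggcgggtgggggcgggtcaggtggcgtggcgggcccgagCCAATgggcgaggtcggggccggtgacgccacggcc

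The 6 libraries held 32032631 to 40728419 counts. Zfp335 itself had 101, 94.3 and 103 CPM (counts relative to the TMM-scaled library size) in WT. It had 37.0, 37.9 and 40.2 CPM in KO, a log2 fold change of -1.37 ± 0.073 (SE; edgeR quasi-likelihood test, adjusted p = 2.14e-05). WT replicate 3 stood apart from the other WT samples on the second principal component (-58.9, against 22.1 and 34.4). Of the 7 Treg markers, Foxp3 and Ikzf2 were lower in KO and 5 were not called, and the lowest mean of the 7 was 222 CPM in WT (Tnfrsf18). The summed level of 7 myeloid markers was 16.7 to 28.0 CPM in WT and 51.0 to 60.4 CPM in KO, and 6 of them rose. The sum of 5 B cell markers was 17.99 to 20.1 CPM in WT and 12.1 to 12.6 CPM in KO, with Cd79b lower. Cd8a rose and Cd8b1 was not called, 2 of 3 plasma cell markers rose, and none of 5 erythroid genes was called. The part of these cells in the histone results was not tested.

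The clustered histone genes were scarce in these libraries. Together, the 42 genes summed to 51.7, 55.3 and 37.2 CPM in the WT libraries. In the KO libraries they summed to 64.1, 71.1 and 79.99 CPM, each above every WT value, and the ratio of the means was 1.49. By contrast, the histone variant gene H2az1, whose mRNA is polyadenylated and made throughout the cycle, alone had 464 ± 52.3 CPM (SD, n = 3) in WT. Divided by transcript length, the median cluster histone gene stood at 0.885 CPM per kilobase in WT and 1.46 in KO, whereas H2az1 stood at 434 and 581, H3f3b at 252 and 293, and H1f0 at 56.0 and 58.3. The level per length among the 42 genes ran from 0.0755 (H2ac6) to 10.6 (H2ac19) in WT. In KO it ran from 0.00957 (H3c14) to 14.3 (H4c9). The 13 vomeronasal receptor genes that lie among the Hist1 genes, which are known from sensory neurons, gave a local reference for low signal. They stood at 0.0477 to 0.271 CPM per kilobase in WT, on the length of their longest transcript (3970 to 10430 bases). On these lengths, 37 of the cluster histone genes were above that range in WT and 38 were above the KO range of 0.0439 to 0.249. The RefSeq spans of the receptor genes are much shorter, as for Vmn1r218 (chr13:23136485-23137381), and would raise their level per length. Undivided, these genes had 0.411 (Vmn1r202) to 2.83 CPM (Vmn1r218) in WT. Of the cluster histone genes, only H1f2, H4c9, H2bc21 and H2ac19 had a WT mean above this undivided range. The annotation used for counting is not known, so the comparison rests on the lengths chosen.

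The filter on low counts kept 40 of the 42 cluster histone genes for testing. A total of 12 rose in KO (30% of those tested), against 11.9% of all 13594 genes tested. Only H2ac19 and H2bc21 fell (5%), against 12.5% of all genes. In either direction 24.4% of all genes were called. A call needed a fold change above 1.5, a p under 0.05 and a Benjamini-Hochberg adjusted p under 0.1 in edgeR's quasi-likelihood test. The median log2 fold change of the 40 genes was 0.85, against -0.035 over all genes, with 32 above 0 and 8 below. In 16 of the tested genes every KO value lay above every WT value, against 26.2% of all genes, and in 3 every KO value lay below, against 27.6%.

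The filter asked for about 0.281 CPM in any 3 samples, and 15 of the 40 genes met it in all 3 KO samples but not in all 3 WT samples. Such genes could pass the filter through KO alone. Of the 12 that rose, 6 did not meet the level in all 3 WT samples. WT replicate 3 was the lowest of all 6 samples for 27 of the 42 genes. Without it, 11 rose, 3 fell and the median log2 fold change was 0.78. Without KO replicates 1, 2 and 3 in turn, 5, 3 and 4 genes rose. These fits have fewer samples by construction, and the cause of the lower counts was not tested. H1f2, H4c9, H3c15 and H2ac19 remained called whichever sample was left out. Over the same omissions of any 1 sample the median stayed between 0.78 and 1.03.

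**Figure D1:**
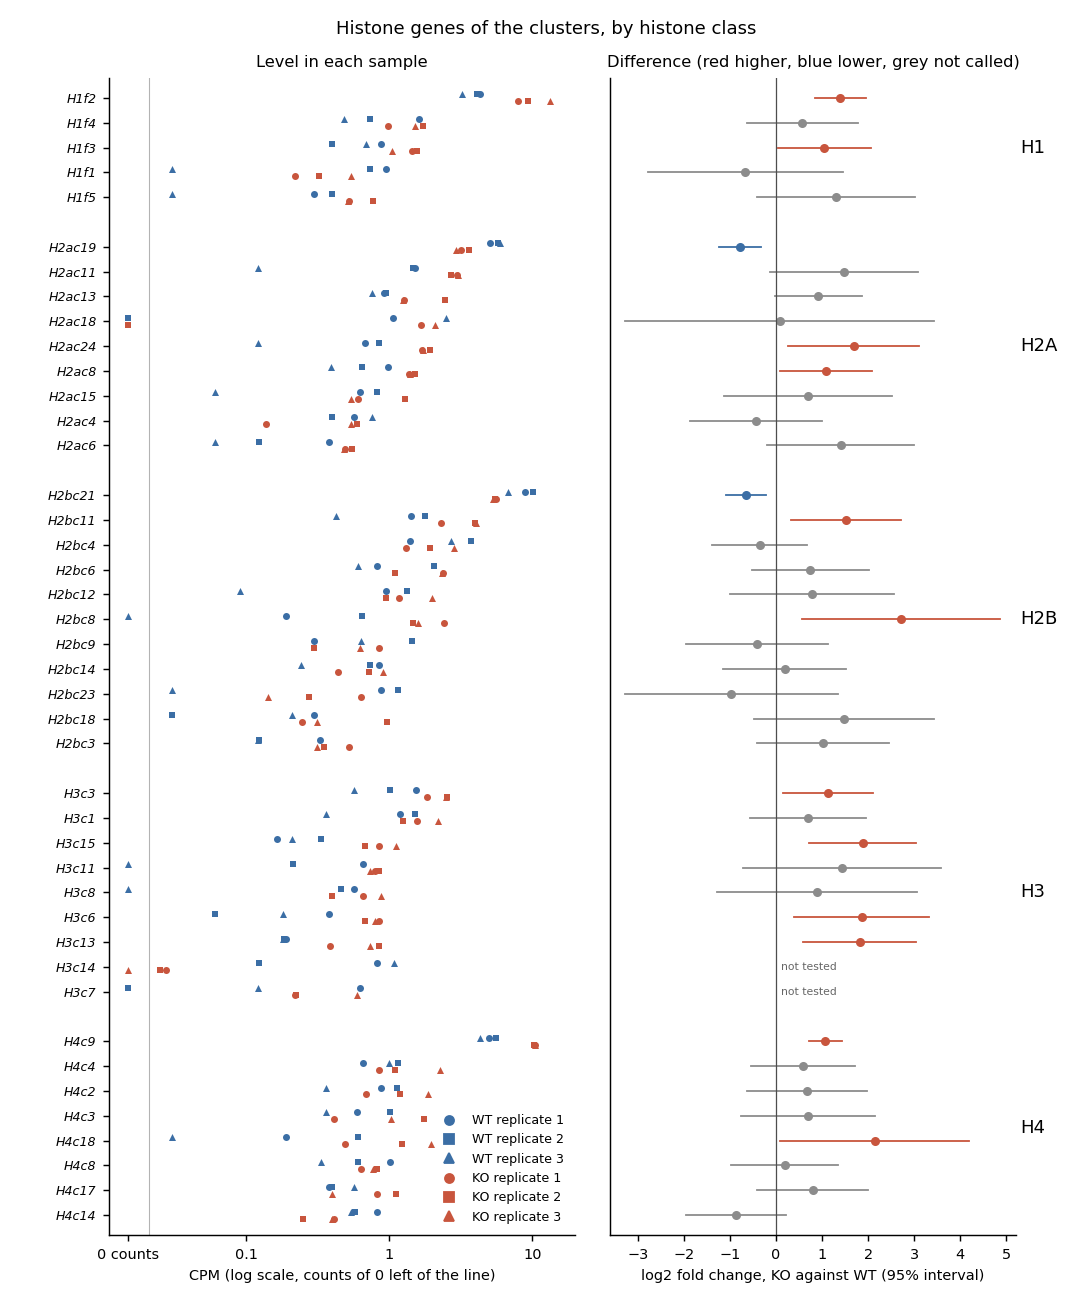
Left, level of each cluster histone gene in each sample (CPM on a log scale, a symbol for each replicate), grouped by histone class and sorted by mean level within a class. Counts of 0 are drawn left of the grey line. Right, log2 fold change of KO against WT with its 95% interval from edgeR for the 40 tested genes. The genes that rose sit mainly right of 1 and most intervals are wide, while H1f2 and H4c9 have the narrow intervals of the better measured genes.

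H4 pairs with H3 in the core of the nucleosome. H4c9 (chr13:22040960-22041362, minus strand) was the most abundant H4 gene and gave the most precise change. It had 4.94, 5.54 and 4.33 CPM in WT and 10.4, 10.2 and 10.5 CPM in KO. The groups were far apart and the KO values nearly equal. Its log2 fold change was 1.07 ± 0.153 (SE, adjusted p = 0.00137), and 0.98 without WT replicate 3. H4c18 also rose (log2 fold change 2.14, adjusted p = 0.0937), from 7, 20 and 1 counts to 18, 49 and 69, with overlap between the groups. It shares 83.2% of its 50-base words with H4c17, so reads may be counted for either gene. H4c17 on its own was not called (0.80, adjusted p = 0.264). The sum of the pair was 21, 33 and 20 counts in WT and 48, 94 and 83 in KO, and it rose when tested as a unit (1.46, adjusted p = 0.0266). H4c4, the second H4 gene by level, had 0.652, 1.16 and 0.991 CPM in WT and 0.849, 1.10 and 2.27 in KO, which overlapped (adjusted p = 0.383). H4c2, H4c3 and H4c8 were not called either, at 0.67, 0.70 and 0.18 on the log2 scale with overlapping groups. In all, 2 of 8 H4 genes rose (25%) and none fell, against 11.9% higher and 12.5% lower over all genes.

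H1 linker histones close the nucleosome and compact the fiber. H1f2 (chr13:23738807-23739531, plus strand) had 4.32, 4.08 and 3.21 CPM in WT and 7.88, 9.36 and 13.3 CPM in KO. Every KO sample was above every WT sample, and KO replicate 3 was highest. The log2 fold change was 1.40 ± 0.238 (SE, adjusted p = 0.00299), and 1.27 without WT replicate 3. Its annotated transcript runs 840 bases past the stem-loop shown above, and its level per length was 2.48 CPM per kilobase in WT and 6.53 in KO. H1f3 rose by a smaller margin (1.05, adjusted p = 0.0931). H1f4, the second H1 gene by level, had 1.60, 0.731 and 0.481 CPM in WT and 0.9854, 1.72 and 1.503 in KO, with overlap (adjusted p = 0.422). H1f5 was at 0.242 CPM in WT and 0.601 in KO, H1f1 at 0.571 and 0.361, and neither was called. WT replicate 3 had 1 count for each of them.

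The 2 linker histone genes outside the clusters gave different values from each other. H1f0, which accumulates in resting and differentiated cells, had 136, 144 and 64.6 CPM in WT and 119, 117 and 123.4 CPM in KO. The WT samples spread on both sides of KO and the gene was not called (0.059 ± 0.261, SE, adjusted p = 0.882). Without WT replicate 3 its log2 fold change was -0.23. H1f10 rose from 1.14 ± 0.613 to 2.55 ± 0.710 CPM (SD, n = 3; log2 fold change 1.16, adjusted p = 0.0871). With these 2 genes, 13 of 42 tested genes rose.

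H3 carries the lysine 4 position whose methyltransferase complexes are known partners of Zfp335. Of 9 H3 genes, 7 were tested and 4 rose (57.1%, against 11.9% of all genes). H3c3, the most abundant, had 1.55, 1.01 and 0.571 CPM in WT and 1.83, 2.54 and 2.50 CPM in KO, without overlap (log2 fold change 1.13 ± 0.419, SE, adjusted p = 0.0667). H3c1, the second by level, had 1.20, 1.52 and 0.361 CPM in WT and 1.56, 1.25 and 2.18 in KO, with overlap (adjusted p = 0.351). H3c6 rose from 14, 2 and 6 counts to 31, 27 and 28 (1.86, adjusted p = 0.0502). It shares 63.2% of its words with H3c7, which had 23, 0 and 4 counts in WT and 8, 9 and 21 in KO and was below the filter. The sum of both was not called (1.27, adjusted p = 0.241). H3c11 and H3c8 had 0 counts in WT replicate 3 and were not called.

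The other H3 genes that rose, H3c13 and H3c15, lie in the Hist2 cluster beside H3c14. H3c13 shares 79.7% of its words with each of them, and H3c15 63.5% with H3c14. The longer H3c14 transcript shares only 34.8% of its words with H3c15. H3c15 went from 6, 11 and 7 counts in WT to 31, 27 and 39 in KO (log2 fold change 1.88, adjusted p = 0.0197). Its copy H3c14 went the other way, from 30, 4 and 36 counts to 1, 1 and 0, and was below the filter. The 70 WT counts and 2 KO counts of H3c14 give a ratio of 0.0263, with a 95% interval of 0.00312 to 0.0985 that covers counting error only. The sum of H3c14 and H3c15 was 36, 15 and 43 counts in WT and 32, 28 and 39 in KO, and the groups overlapped. The ratio of the mean summed CPM, KO to WT, was 0.983, but 0.787 without WT replicate 2 and 1.24 without WT replicate 3, so the direction of the total was not resolved. The 2 promoters hold 284 equal bases of 285 when 1 window is shifted against the other. With H3c13 added, the unit of 3 genes was not called (0.50, adjusted p = 0.378). Whether the switch between copies lies in the cells or in the assignment of reads was not tested.

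H2A and H2B enter the nucleosome as a dimer. H2bc8, which had the largest fold change of the 40 genes, had 7, 21 and 0 counts in WT and 88, 59 and 56 in KO (2.71 ± 0.922, SE, adjusted p = 0.0502). All KO values were above all WT values, and the 95% interval was wide, from 0.57 to 4.85. Its head-to-head partner H2ac8, 179 bases away, rose as well, from 36, 21 and 13 counts to 50, 61 and 49 (1.083, adjusted p = 0.0851). The next pair, H2bc11 and H2ac11, starts 248 bases apart. H2bc11 had 1.41, 1.77 and 0.421 CPM in WT and 2.30, 3.98 and 4.03 in KO (1.52 ± 0.513, SE, adjusted p = 0.0494). H2ac11 had 1.52, 1.46 and 0.12 CPM in WT and 2.96, 2.69 and 3.04 in KO, again without overlap, and was not called (1.48 ± 0.693, SE, adjusted p = 0.132). WT replicate 3 was lowest for both genes of this pair. In the pair of H2ac6 and H2bc4 neither gene was called. H2bc4, the third H2B gene by level, stood at 2.60 CPM in WT and 2.03 in KO. The other 7 H2B genes that were not called ran from -0.97 (H2bc23) to 1.48 (H2bc18) on the log2 scale, all with overlap.

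Many H2A genes of Hist1 share long stretches. H2ac24 rose (1.69, adjusted p = 0.0626) and shares 93.1% of its words with H2ac23, which was not analysed here. Of the 6 H2A genes not called, H2ac6, H2ac11 and H2ac13 lay above WT in every KO sample, and H2ac4, H2ac15 and H2ac18 overlapped. When 6 H2A genes joined by shared words (H2ac4, H2ac6, H2ac8, H2ac11, H2ac13 and H2ac24) were summed, the unit had 5.05, 4.42 and 2.19 CPM in WT and 7.91, 9.71 and 8.42 in KO, and it rose (1.16, adjusted p = 0.0181). For H2B, the sum of H2bc4, H2bc11, H2bc12 and H2bc23 was not called (0.45, adjusted p = 0.347), so the rise of H2bc11 did not carry over to its group of copies.

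The genes that fell, H2bc21 and H2ac19, were the most abundant H2B and H2A genes and both belong to Hist2. H2bc21 (chr3:96221072-96223738, plus strand) had 8.83, 10.1 and 6.79 CPM in WT and 5.61, 5.50 and 5.304 in KO, all below WT. Its log2 fold change was -0.65 ± 0.186 (SE, adjusted p = 0.0268). None of its words is shared with another histone gene of the rule. H2ac19 (chr3:96239779-96240374, minus strand) had 5.08, 5.72 and 5.95 CPM in WT and 3.15, 3.63 and 2.92 in KO, also without overlap (-0.79 ± 0.198, SE, adjusted p = 0.016).

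All words of the H2ac19 transcript occur in H2ac18, its copy on the opposite strand (chr3:96245497-96246052), and the promoters hold 249 equal bases of 260 when shifted. H2ac18 had 39, 0 and 83 counts in WT and 61, 0 and 74 in KO, so the split between the copies differed from library to library, with 0 in replicate 2 of both genotypes. The pair together had 226, 188 and 281 counts in WT and 176, 146 and 177 in KO. The CPM of the pair lay lower in every KO sample than in any WT sample, and the pair fell when tested as a unit (-0.59, adjusted p = 0.0744). H4c14, also in Hist2, lay below WT in all KO samples and was not called (-0.87 ± 0.468, SE, adjusted p = 0.182).

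**Figure D2:**
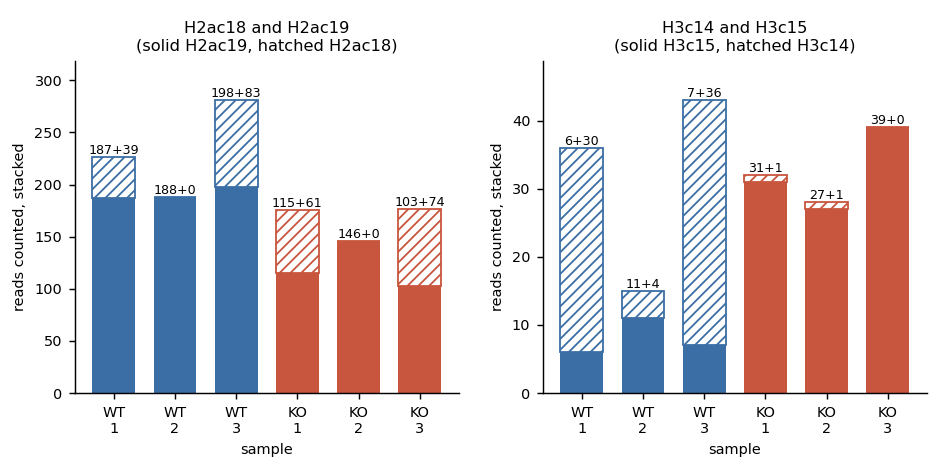
Reads counted for the near-identical copies H2ac19 (solid) and H2ac18 (hatched), left, in each of the 6 samples, stacked from 0. The right side shows the partly shared copies H3c15 (solid) and H3c14 (hatched). The numbers above the bars are the counts of the solid and the hatched gene. The stacked counts for H3 overlap between WT (15 to 43) and KO (28 to 39), with H3c14 at 1, 1 and 0 counts in KO, and H2ac18 is at 0 in replicate 2 of both genotypes.

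Sums over classes do not depend on how reads were split among the genes summed, and are given without a test. Reads placed on copies that were not analysed here, such as H2ac23, would be missing from them. H1 had 6.27 ± 1.80 CPM in WT and 13.9 ± 2.94 in KO (SD, n = 3), a ratio of 2.22. Most of this sum came from H1f2 (3.87 CPM in WT and 10.2 in KO). H3 had a ratio of 1.9, from 4.25 ± 1.74 to 8.06 ± 1.29 CPM. H4 had a ratio of 1.84, from 9.33 ± 1.76 to 17.2 ± 2.29 CPM, and most of it was H4c9 (4.94 CPM in WT and 10.4 in KO). In these 3 classes and in H2A (ratio 1.25, from 11.2 ± 0.587 to 13.98 ± 0.653 CPM) no KO value overlapped WT. H2B overlapped, at 16.2, 23.1 and 11.8 CPM in WT and 17.9, 17.6 and 20.4 in KO (ratio 1.09), and its log2 ratio of 0.13 became -0.081 without WT replicate 3.

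By cluster, the summed levels went in opposite directions. The 34 Hist1 genes had 34.4, 38.2 and 19.7 CPM in WT and 51.8, 59.2 and 67.1 in KO, a ratio of 1.93. The 8 Hist2 genes had 17.2, 17.1 and 17.4 CPM in WT and 12.3, 11.9 and 12.9 in KO, a ratio of 0.716. Neither pair of groups overlapped. Most of the Hist2 sum came from H2bc21 (8.59 CPM in WT and 5.47 in KO) and H2ac19 (5.58 and 3.23). Of the 7 tested Hist2 genes, 4 had a log2 fold change above 0 and 3 below. Among the 4 was H2ac18 (0.079 ± 1.448, SE), whose pair with H2ac19 had a ratio of 0.664. Another was H3c15, whose sum with the untested H3c14 had a ratio of 0.983. How far the fall of the sum was shared across the cluster was therefore not resolved. Without WT replicate 3, whose Hist1 sum was the lowest, the log2 ratio of Hist1 was 0.71 in place of 0.95 and that of Hist2 -0.47 in place of -0.48. In Hist1, 10 of 33 tested genes rose (30.3%) and none fell (median log2 fold change 0.89). In Hist2, 2 of 7 rose, H3c13 and H3c15, and 2 fell (28.6% each, median 0.079). Over all genes tested, 11.9% were higher and 12.5% lower. The difference between the clusters was not tested.

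**Figure D3:**
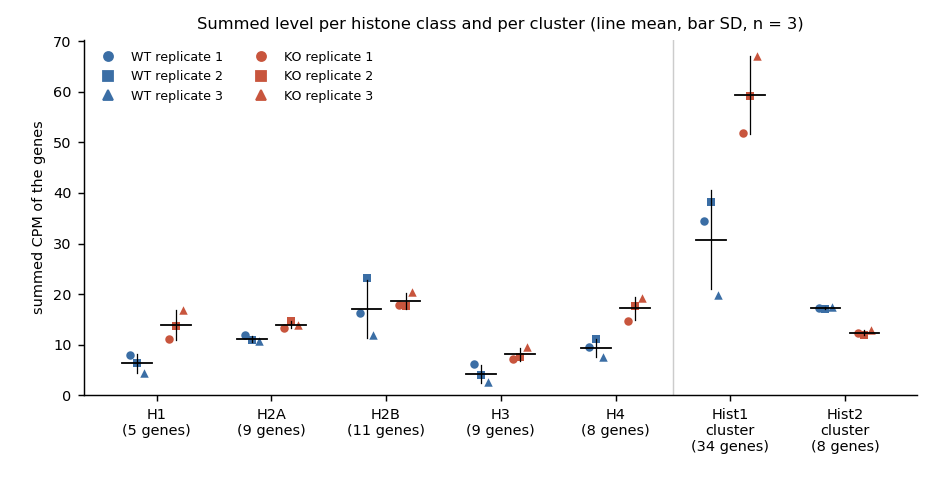
Summed CPM of the cluster histone genes of each class (left of the grey line) and of each cluster (right) in each sample, with the mean as a line and the SD as a bar (n = 3). Hist1 is higher in every KO sample (51.8 to 67.1 CPM, against 19.7 to 38.2) and Hist2 lower (11.9 to 12.9, against 17.1 to 17.4), while H2B overlaps. Most of the Hist2 sum is from H2bc21 and H2ac19.

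The annotated transcript end divided the genes in another way. For comparison, 11.9% of all genes tested were higher and 12.5% lower. In 17 genes the transcript stops within 200 bases after the stem-loop, 6 of them rose and 1 fell, and the median log2 fold change was 0.80. In 14 genes it runs further, and of the 12 tested 5 rose, with a median of 0.90. The remaining 11 had no match to the stem-loop in their transcript, 1 rose and 1 fell, and the median was 0.89. Some of these transcripts are annotated short of the gene's end, so this group is not a class of mRNA ends. Summed over genes, these groups went from 16.9 to 26.7 CPM, from 16.1 to 31.2 CPM and from 15.1 to 13.9 CPM. The last group includes H2bc21. The genes were also divided by similarity to their copies. Of 18 tested genes with at least 50% shared words, 6 rose and 1 fell, and of 22 with fewer, 6 rose and 1 fell.

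Genes that act on histone mRNAs and proteins were taken from fixed lists. Slbp, the stem-loop binding protein, had 85.0, 88.2 and 82.1 CPM in WT and 152, 141 and 155 CPM in KO. All KO samples were above WT (0.81 on the log2 scale ± 0.068, SE, adjusted p = 0.000141). Eri1, the exonuclease that trims and degrades histone mRNA, rose from 54.9 ± 2.96 to 98.3 ± 4.86 CPM (SD, n = 3; 0.84, adjusted p = 0.000176). Npat, the coactivator of histone gene transcription, rose (0.61, adjusted p = 0.00544), as did Casp8ap2 of the histone locus body (0.67, adjusted p = 0.00302) and Zfp473, a U7 snRNP cofactor (1.53, adjusted p = 0.00745). In all, 5 of 21 such genes rose (23.8%) and none fell, against 11.9% higher and 12.5% lower over all genes. The median was 0.16, with 13 genes above 0 and 8 below. The U7-specific proteins Lsm10 and Lsm11, the H4 promoter factor Hinfp, and Cpsf3, which cuts the 3′ end, were not called.

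Histone chaperones escort new histones to DNA. Of 19, 10 rose and none fell, against 11.9% higher and 12.5% lower over all genes, with a median log2 fold change of 0.61. Asf1b, a carrier of new H3 and H4, had 40.6, 37.4 and 17.3 CPM in WT and 105, 106 and 108 in KO (1.74 ± 0.276, SE, adjusted p = 0.00215). Chaf1a and Chaf1b, subunits of the assembly factor CAF-1, rose by 1.40 and 0.97 (adjusted p = 0.00309 and 0.00138). Nasp, which protects H3 and H4, rose by 0.92 (adjusted p = 0.000133), and Hat1, which acetylates new H4, by 1.06 (adjusted p = 0.00195). The replication-independent H3.3 chaperones Hira, Daxx and Atrx were not called. Atrx stood at 436 CPM in WT and 362 in KO, with every KO value below every WT value (-0.27, adjusted p = 0.0296, under the fold limit).

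Among 9 histone variant genes outside the clusters, H2ax, which marks DNA breaks, rose from 40.9 ± 8.97 to 86.1 ± 7.52 CPM (SD, n = 3; 1.07, adjusted p = 0.00169), and Cenpa, the centromeric H3, rose by 0.82 (adjusted p = 0.00034). The other 7 were not called, including H2az1 (0.42, adjusted p = 0.00776, under the fold limit) and the H3.3 genes H3f3a and H3f3b. H3f3a was lower in every KO sample (-0.34, adjusted p = 0.0419, under the fold limit), and H3f3b was at 0.22 (adjusted p = 0.115). The median log2 fold change of all 9 was 0.19. The 18 other genes between the first and last gene of a cluster gave 2 calls among 17 tested, Prss16 and Hfe, both higher. This was 11.8%, against 11.9% higher over all genes. The median of the 17 was -0.31. None of the 13 vomeronasal receptor genes among them was called, and their summed CPM was 10.3 to 13.3 in WT and 9.80 to 10.3 in KO.

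Genes of S phase and proliferation were listed because the clustered histone genes are known to be expressed in S phase. Of the 25, 24 rose (median log2 fold change 1.31), among them Mcm5 (1.31, adjusted p = 0.00288), a subunit of the replicative helicase, Rrm2 (2.46, adjusted p = 0.00105), which makes deoxynucleotides, and Mki67 (2.09, adjusted p = 0.00101). Their summed level was 2782, 2764 and 1623 CPM in WT and 6780, 6555 and 6559 in KO, a ratio of 2.78, against 1.49 for the cluster histone genes. Expressed per list, the cluster histone genes amounted to 1.86% to 2.29% of the summed S phase CPM in the WT libraries and to 0.945% to 1.22% in the KO libraries. The WT and KO values of this ratio did not overlap. WT replicate 3 was lowest of the 6 in both sums and highest in the percentage. Without it the log2 ratio of the histone sum was 0.42 in place of 0.58. The part of proliferation in the rise of the histone genes was not tested.

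**Figure D4:**
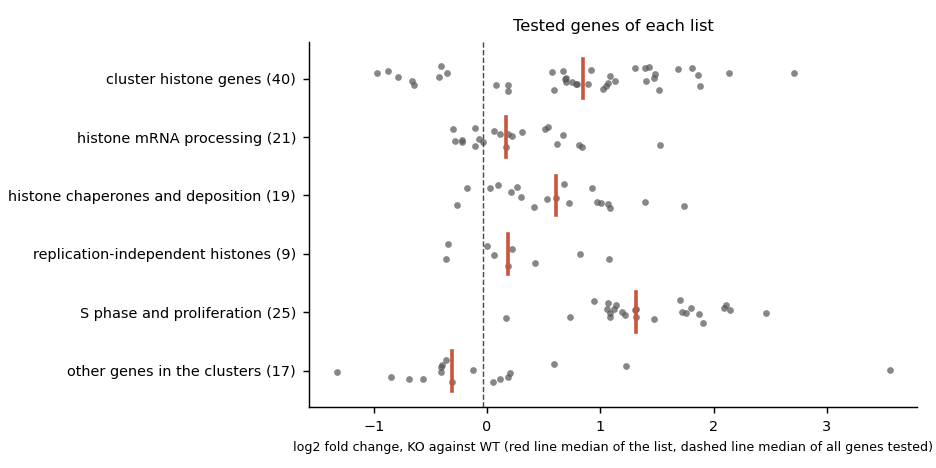
Log2 fold change of KO against WT for each tested gene of 6 groups, with the number of genes in brackets, the median as a red line and the median of all genes tested (-0.035) as a dashed line. The cluster histone genes have a median of 0.85 and a wide spread, 24 of the 25 genes of the S phase list lie at 0.73 or higher, and the other genes in the clusters center on -0.31.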

How the data were processed

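The 6 samples were sequenced from total RNA with a TruSeq RNA kit. Per the study's methods, the authors filtered reads with SOAPnuke, aligned them to mm10 with HISAT2 keeping 1 alignment per read, quantified genes with StringTie and deposited a table of whole-number counts. How the counts were rounded, the annotation and the use of strand are not given in the sources used here. Keeping 1 alignment per read can place reads of near-identical histone genes on the wrong copy.

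The counts were tested with edgeR 4.0.16 in R 4.3.3 (filterByExpr with a minimum count of 10, TMM scaling, glmQLFit and glmQLFTest, two-sided, Benjamini-Hochberg over the 13594 genes tested). A gene was called at a fold change above 1.5, p under 0.05 and adjusted p under 0.1, the study's cutoffs. The floor of 3 counts was 0.0747 to 0.0913 CPM, for counting error only. The sharing of 50-base words used the shortest GENCODE M21 transcript of each gene, and genes sharing at least 60% were summed for the test of units. Full values are given for called genes of at least 5 CPM and for the 2 genes of highest mean CPM in each class. Other members described with counts were picked after their values were seen. Members and lists were chosen with earlier results of these data known. The fit was tested on simulated data. DESeq2 1.42.0, other scalings and filters, and omitted samples were alternatives. Of 19 RNAs listed as lacking a poly(A) tail, none was analysed here.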

Additional observations from a re-analysis of the deposited data

How the results depend on the processing

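H1f2, H4c9, H3c15 and H2ac19 remained called with each single sample left out. With H1f2 at 1.16 to 1.55 and H4c9 at 0.98 to 1.16 on the log2 scale, both also passed every other setting. Of 14 calls among the cluster genes, DESeq2, RLE size factors and no filter shared all 14, library totals alone 12, and GC content and length offsets 13. The count that rose was 12, against 14 with DESeq2 and 3 to 13 over the omissions of 1 sample, which have fewer samples by construction. It was 7 with at least 10 counts in every sample (20 genes tested), 5 at adjusted p under 0.05 without a fold limit, and 3 with glmTreat against a fold change of 1.5. The count that fell was 2, against 0 with glmTreat and 1 with GC content and length offsets. It was 3 with DESeq2 and 3 with no filter, which tested all 42 cluster genes, H3c14 and H3c7 included. Over all genes the counts higher and lower became 2610 and 2634 at adjusted p under 0.05, and 941 and 745 with glmTreat.

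The next settings were chosen after seeing the data. Summing copies joined by shared words left 29 units, of which 7 rose and 2 fell, with fewer units by construction. The call of H3c15 was lost, since its unit with H3c13 and H3c14 was not called (log2 fold change 0.50). With H1f0 and H1f10 the log2 ratio of the summed level was 0.24 in place of 0.58, and -0.008 without WT replicate 3, so that its sign rested on that library. With them, 13 genes rose.

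The replicate numbers did not pair the samples (correlations of deviations 0.038, 0.04 and -0.012). With the replicate number as a block, 8 cluster genes rose, 2 fell, and 10 of the 14 calls were shared.

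Over the omissions of 1 sample, the sign also reversed for the sums of H2B (-0.081 to 0.41) and of H3c14 and H3c15 (-0.35 to 0.32), and for H1f0 (-0.23 to 0.25), H2ac18 (-0.51 to 1.20), H2bc14 (-0.20 to 0.50), H2bc9 (-0.80 to 0.34) and H4c8 (-0.13 to 0.65). The cause was not tested. Depth limits most members, since 22 of the 42 had a mean under 1 CPM and 6 had a count of 0 in some sample.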
